A study of Cricetulus griseus with 6 samples.

Results

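Condensins are the ring-shaped complexes that fold chromatin into compact mitotic chromosomes, and the genes described here encode their subunits: Smc2, Smc4, Ncapd2, Ncapg, Ncaph, Ncapd3, Ncapg2 and Ncaph2. They were chosen by name, with earlier results of these data known. A probe set was taken wherever the platform annotation gave it only the symbol of such a gene. All 8 genes were measured, by 9 of the 29700 probe sets on the array, and they stand among 14899 genes with a probe set of their own. Ncapg2 had 2 probe sets and each of the other genes 1.

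The samples were 6 suspension flasks of CHO-K1, an established line derived from Chinese hamster ovary, all started at 200000 cells/ml in 50 ml of the serum-free medium SFM-F10. In 3 flasks (+PUT in the labels) the medium held 1 mg/l putrescine, a small diamine from which cells make the polyamines spermidine and spermine. In the other 3 (NoPUT) it held neither putrescine nor any other polyamine or ornithine. RNA was taken on day 3, and each flask was hybridised to its own Affymetrix array. The labels call the flasks biological triplicates and describe no other treatment. All flasks are of the same cell line, so the spread between replicates is that between flasks.

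A condensin holds a pair of SMC ATPases, Smc2 and Smc4, whose coiled arms meet at a hinge and whose ATPase heads are bridged by a kleisin subunit. A pair of HEAT-repeat subunits binds the kleisin and contacts DNA. Vertebrates have a condensin I, with Ncapd2, Ncapg and Ncaph, and a condensin II, with Ncapd3, Ncapg2 and Ncaph2, built on the same SMC pair. Condensin II is nuclear through interphase and acts on chromosomes from prophase, while condensin I reaches them after the nuclear envelope breaks down.

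Without putrescine, 6 of the 8 condensin genes were higher and 0 were lower. The rise was 2.03-fold for Ncapg, 1.75-fold for Ncapg2, 1.53-fold for Smc4 and 1.39-fold for Ncaph. It was 1.27-fold for Ncapd3 and 1.24-fold for Ncapd2. Smc2 and Ncaph2 did not pass the test, with log2 differences of 0.34 and 0.03. The test was limma's moderated test across all probe sets, at a Benjamini-Hochberg adjusted p under 0.05. Over all genes, each by its brightest probe set, 15.8% were higher by the same rule and 14.2% lower. Brighter genes passed more often: among the 5362 genes at least as bright as Ncaph2, the dimmest condensin gene, 27.0% were higher and 21.8% lower. The median log2 difference was 0.41 over the 8 genes and 0.007 over all genes. Of the 8 genes, 7 had no overlap between the groups, with all 3 arrays without putrescine above all 3 with it, where 23.3% of all genes and 38.2% of those at least as bright as Ncaph2 did. With 1 array left out, between 4 and 6 of the 8 genes passed. The lowest count came without with-putrescine replicate 3, which left Ncapg, Ncapg2, Smc4 and Ncaph. In bulk RNA, more cells in a given cell cycle phase and more RNA per cell cannot be told apart.

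Values are log2 intensities as deposited, and a difference is the mean without putrescine minus the mean with it. The level of a probe set depends on its probes as well as on the RNA, so levels are not ranked between genes. All 9 condensin probe sets were above 3.62, the median level of 12 markers of other tissues.

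**Figure D1:**
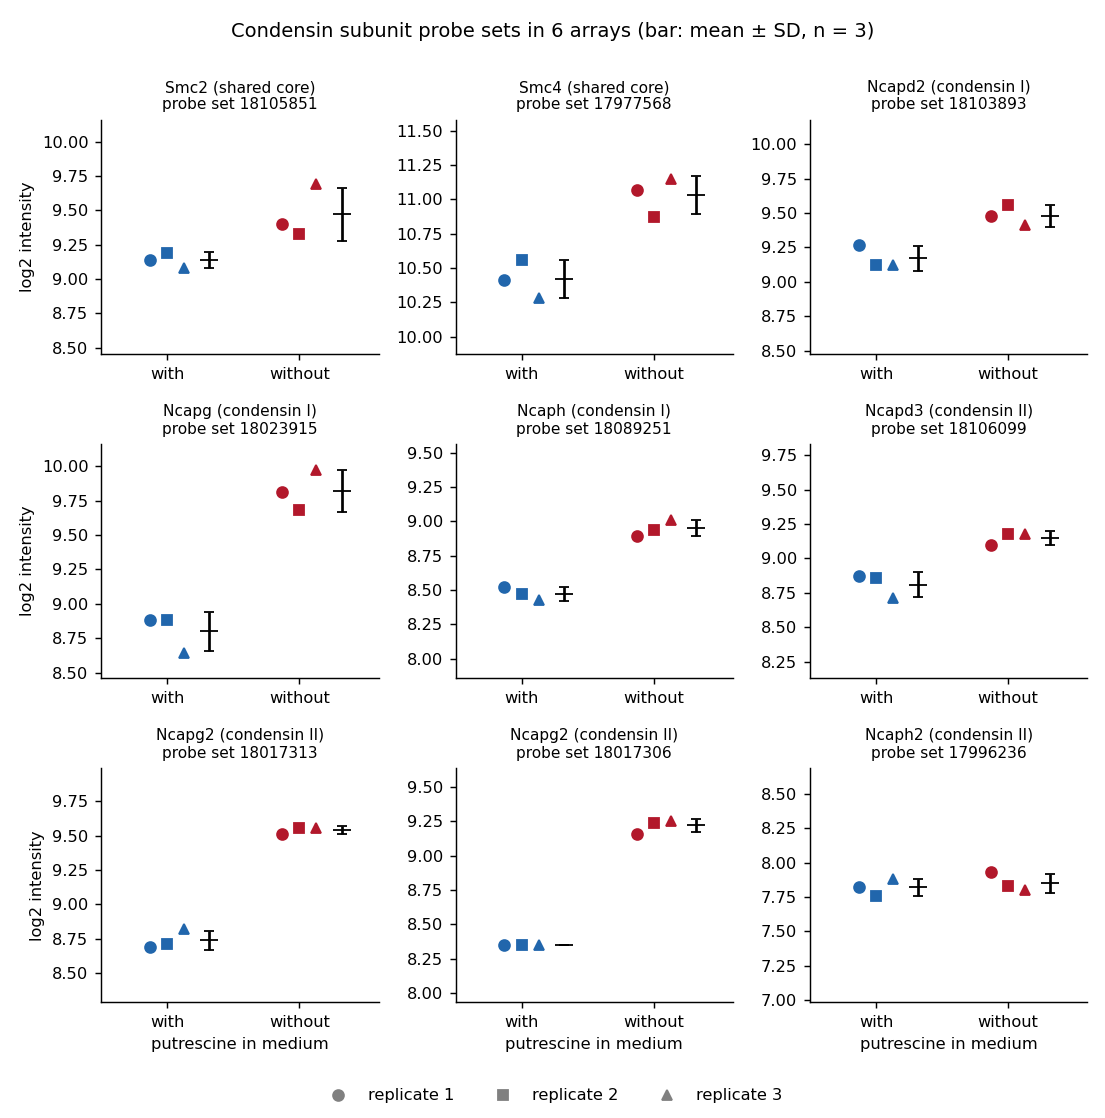
Log2 intensity of each condensin probe set (vertical axis, 1.7 log2 units in every panel) in the arrays with and without putrescine. Symbols are the replicates and bars the mean ± SD (n = 3). The groups are apart in all panels but that of Ncaph2, and the gap is widest for Ncapg2 and Ncapg.

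Among the shared ATPase genes, Smc4 rose and Smc2 stayed just outside the threshold. Smc4 (probe set 17977568) read 11.07, 10.87 and 11.15 in replicates 1, 2 and 3 without putrescine and 10.41, 10.56 and 10.28 with it. The lowest array without putrescine was 0.31 above the highest array with it. Its difference was 0.61 (SE 0.11, 95% interval 0.36 to 0.86; limma adjusted p = 0.00372). The call held in all 11 alternative fits, with adjusted p from 0.000153 to 0.0172.

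Smc2 (probe set 18105851), the partner ATPase in both complexes, read 9.40, 9.33 and 9.69 without putrescine and 9.14, 9.19 and 9.08 with it. The groups did not overlap, but replicate 3 without putrescine lay well above the other two, and the SD there was 0.19 against 0.06 with putrescine. The difference was 0.34 (SE 0.11, 95% interval 0.09 to 0.58; limma adjusted p = 0.0545). It was 0.23 without no-putrescine replicate 3. The gene passed in 3 of 11 alternatives: without no-putrescine replicate 2, over probe sets above the other-tissue marker level only, and with a trended robust prior. Its adjusted p ran from 0.0145 to 0.144 over all 11.

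All 3 genes particular to condensin I rose. Ncapg (probe set 18023915), a HEAT-repeat subunit, read 9.81, 9.68 and 9.97 without putrescine and 8.88, 8.88 and 8.64 with it. Every array without putrescine was at least 0.80 above every array with it. The difference was 1.02 (SE 0.11, 95% interval 0.77 to 1.27), or 2.03-fold with an interval of 1.71-fold to 2.41-fold (limma adjusted p = 0.000298). It was larger than that of 98.8% of all probe sets on the array.

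Ncaph (probe set 18089251), the kleisin of condensin I, read 8.89, 8.94 and 9.01 without putrescine and 8.52, 8.47 and 8.43 with it. Both groups were tight, with SDs of 0.06 and 0.05 around means of 8.95 and 8.47. The difference was 0.47 (SE 0.08, 95% interval 0.29 to 0.66; limma adjusted p = 0.00304), and the gene passed in all 11 alternatives.

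Ncapd2 (probe set 18103893), the other HEAT-repeat subunit of condensin I, read 9.48, 9.56 and 9.41 without putrescine and 9.27, 9.12 and 9.12 with it. The groups were separated by 0.14. The difference was 0.31 (SE 0.09, 95% interval 0.11 to 0.51; limma adjusted p = 0.0311), so the fold change was 1.24 with an interval of 1.08 to 1.43. This call was lost without no-putrescine replicate 1 or 2 and without with-putrescine replicate 2 or 3. The adjusted p ran from 0.00566 to 0.104 over the 11 alternatives.

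Of the condensin II genes, both HEAT-repeat subunits rose and the kleisin did not. Ncapg2, the paralogue of Ncapg, was measured by 2 probe sets. Its probe set 18017313 read 9.51, 9.56 and 9.56 without putrescine and 8.69, 8.71 and 8.82 with it. Its probe set 18017306 read 9.16, 9.24 and 9.25 without putrescine and 8.35 in all 3 arrays with it. The pair gave differences of 0.80 (SE 0.08) and 0.87 (SE 0.08), with 95% intervals of 0.62 to 0.99 and 0.69 to 1.04 (limma adjusted p = 0.000226 and 0.000137). They differed from each other by less than their standard errors, and both passed in all 11 alternatives.

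Ncapd3 (probe set 18106099), which pairs with Ncapg2 in condensin II, read 9.10, 9.18 and 9.18 without putrescine and 8.87, 8.86 and 8.71 with it. The groups were 0.23 apart. The difference was 0.34 (SE 0.09, 95% interval 0.15 to 0.53; limma adjusted p = 0.0191). The call was lost without no-putrescine replicate 2 or 3 and without with-putrescine replicate 3, and the adjusted p over the 11 fits ran from 0.00343 to 0.0721.

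Ncaph2 (probe set 17996236), the kleisin of condensin II, read 7.93, 7.83 and 7.80 without putrescine and 7.82, 7.76 and 7.88 with it. The groups overlapped, and their means differed by less than the SD of either group (0.07 without and 0.06 with putrescine). The difference was 0.03 (SE 0.08; limma adjusted p = 0.834). Its 95% interval of -0.16 to 0.22 corresponds to a fold change between 0.90 and 1.17, and 54.8% of all probe sets had a difference no larger.

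**Figure D2:**
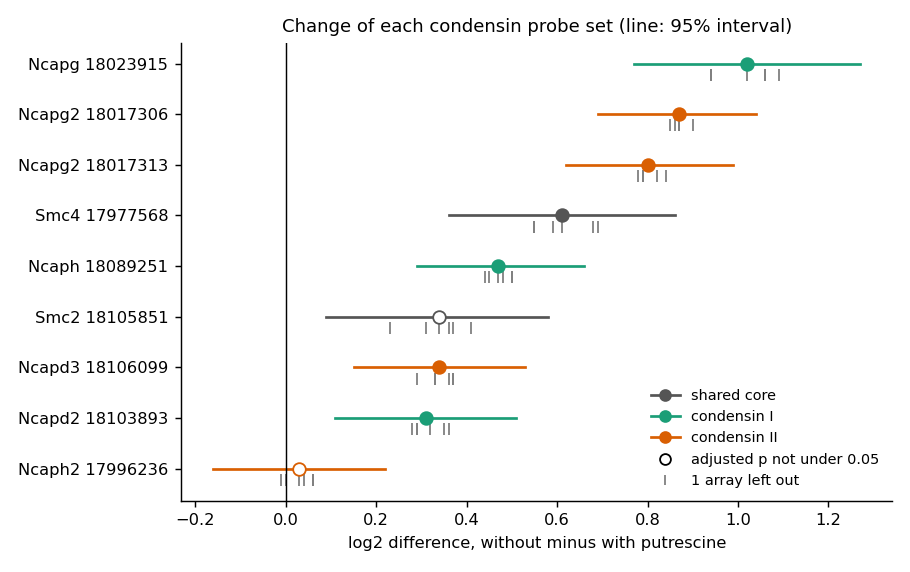
Log2 difference without minus with putrescine (horizontal axis) of each condensin probe set, with its 95% interval. Filled points passed the test, open points did not, and grey ticks show the difference with 1 array left out. Ncapg and the Ncapg2 probe sets lie at 0.80 to 1.02, and Ncaph2 lies at 0.03.

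Ordered by the size of the change, the genes ran from Ncapg (1.02) through Ncapg2 (0.80), Smc4 (0.61), Ncaph (0.47), Smc2 and Ncapd3 (both 0.34) and Ncapd2 (0.31) to Ncaph2 (0.03). Neighbours in this order had overlapping 95% intervals, including Ncapd2 and Ncaph2. The interval of Ncapg lay above those of Ncaph, Smc2, Ncapd3, Ncapd2 and Ncaph2. That of Ncaph2 lay below those of Ncapg, Ncapg2, Smc4 and Ncaph. All of these intervals come from the same 6 arrays.

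**Figure D3:**
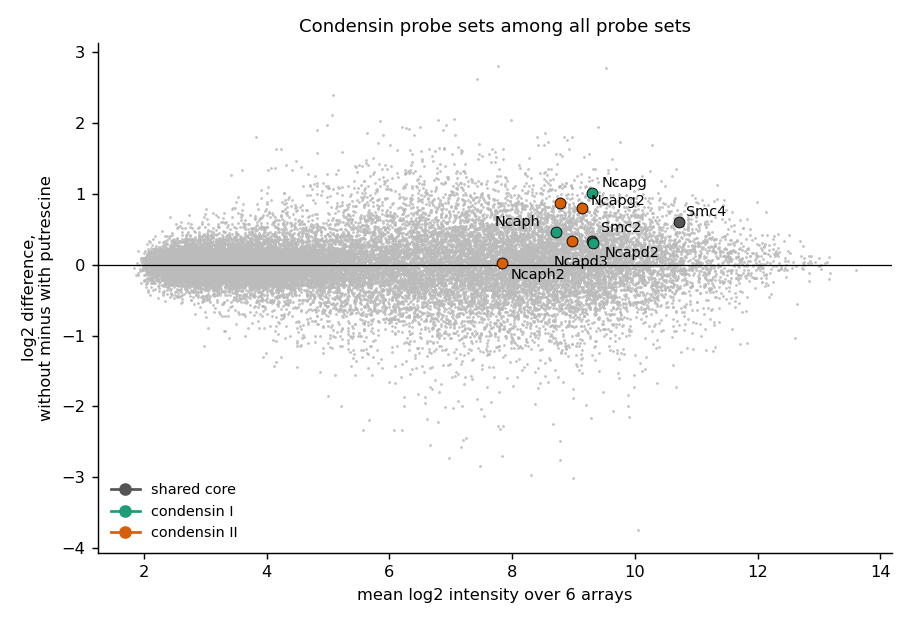
Log2 difference without minus with putrescine (vertical axis) against the mean log2 intensity over the 6 arrays (horizontal axis) for all probe sets in grey, with the 9 condensin probe sets in colour. The condensin probe sets lie in the brighter part of the array, on or above the line of no difference.

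The complexes could be compared subunit by subunit, since each condensin I gene has a counterpart in condensin II. For every array the log2 value of the condensin II gene was subtracted from that of its counterpart, and these differences were compared between the groups by an exact two-sided permutation test. With 3 arrays against 3 its smallest possible p is 0.1, so no pair could reach 0.05. The SMC pair was included, so 4 pairs were compared.

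Of the 4 pairs the kleisins differed most. Ncaph minus Ncaph2 lay between 0.96 and 1.21 without putrescine and between 0.55 and 0.71 with it, so the groups did not overlap. The change of Ncaph exceeded that of Ncaph2 by 0.44 (SE 0.09; exact permutation p = 0.1, adjusted p = 0.2 over the 4 pairs). The HEAT-repeat pair Ncapg and Ncapg2, which had the larger rises in their complexes, differed in change by 0.22 (SE 0.15; exact permutation p = 0.3, adjusted p = 0.4), with overlapping groups. Ncapd2 and Ncapd3 differed in change by -0.03 (SE 0.07; exact permutation p = 0.5, adjusted p = 0.5).

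The change of Smc2 was smaller than that of Smc4 by 0.28, which is -0.28 for Smc2 minus Smc4 (SE 0.08; exact permutation p = 0.1, adjusted p = 0.2). The pair's difference ran from -1.67 to -1.46 without putrescine and from -1.37 to -1.20 with it. All 3 arrays without putrescine were therefore below all 3 with it. How often other gene pairs on the array were apart in this way was not counted, for this pair or for the kleisins.

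**Figure D4:**
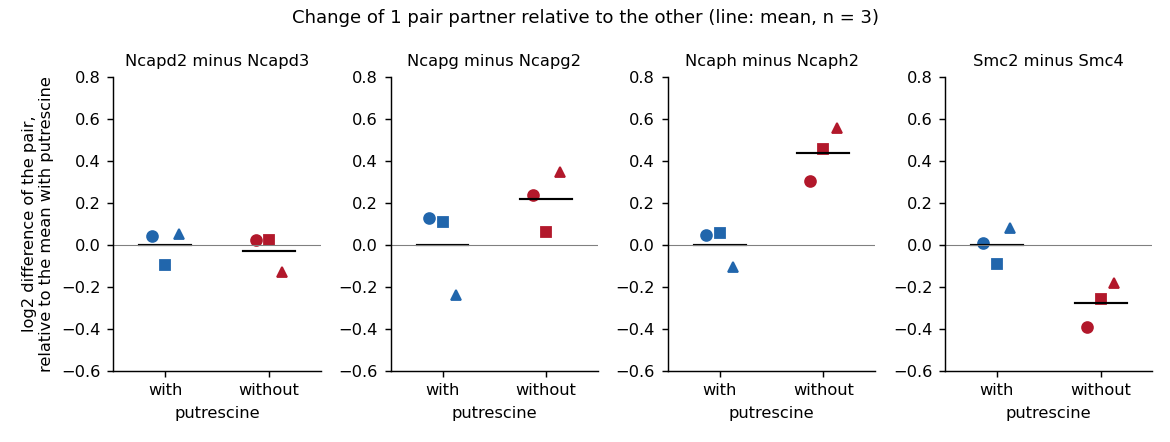
Per-array log2 difference within each subunit pair (vertical axis), set to a mean of 0 in the arrays with putrescine, for the arrays with and without putrescine. Symbols are replicates 1 (circle), 2 (square) and 3 (triangle), and lines are means (n = 3). The groups are apart for Ncaph minus Ncaph2 and for Smc2 minus Smc4 and overlap for the other pairs.

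Within groups, the flask with the highest or lowest value was looked up for each of the 9 probe sets. Without putrescine, replicate 3 held the highest value of 5 of the 9 probe sets, those of Smc2, Smc4, Ncapg, Ncaph and 1 of Ncapg2. With putrescine, replicate 3 held the lowest value of 5, those of Smc2, Smc4, Ncapg, Ncaph and Ncapd3. Ncapd2 and Ncaph2 went the other way without putrescine, where replicate 3 was their lowest array. With putrescine, replicate 3 was the highest array for Ncaph2 and for 1 probe set of Ncapg2. How often each array was highest or lowest over all probe sets was not counted. Averaged over the 8 genes and set against the mean of the arrays with putrescine, the level was 0.48, 0.45 and 0.55 in replicates 1, 2 and 3 without putrescine. In the arrays with putrescine it was 0.03, 0.02 and -0.05.

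Genes whose products act on condensin were described as a further list, chosen, as were those below, with earlier results of these data known. It holds, among others, genes for kinases, cyclins, phosphatase subunits, a histone demethylase and an inhibitor, with roles known mainly from human cells. Of 25 entries 19 had a probe set, and of these 12 rose, 1 fell and 6 did not pass, with a median log2 difference of 0.47. Over all genes 15.8% were higher and 14.2% lower, and 27.0% and 21.8% of those at least as bright as Ncaph2.

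Mcph1, which holds condensin II off chromatin in interphase, rose by 0.41 (SE 0.09; limma adjusted p = 0.00784), from 8.49 ± 0.09 to 8.91 ± 0.05 (SD, n = 3). Aurkb, Incenp and Cdca8 belong to the chromosomal passenger complex, whose kinase phosphorylates condensin I. They rose by 0.47, 0.71 and 1.02. Cdca8 went from 7.43 ± 0.06 to 8.45 ± 0.05 (SD, n = 3), the smallest p of the list (limma adjusted p = 7.9e-05).

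The mitotic kinase Cdk1 phosphorylates subunits of both complexes together with B-type cyclins. Its cyclin gene Ccnb1 rose by 0.94 (SE 0.09; limma adjusted p = 0.00018). Cdk1 itself was 10.92 ± 0.07 without and 10.73 ± 0.08 with putrescine (SD, n = 3), a difference of 0.19 that did not pass (limma adjusted p = 0.157). It passed in 1 of 11 alternatives, the trended robust prior (adjusted p 0.031 to 0.32).

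Plk1, a kinase that acts on condensin II, rose by 0.30 (limma adjusted p = 0.0322). That call was lost without no-putrescine replicate 2 or 3 and without with-putrescine replicate 2 or 3, and also after quantile normalization (adjusted p 0.00336 to 0.113 over the alternatives). Ppp2r1b, a scaffold subunit of the phosphatase PP2A, rose by 0.71, while its sister gene Ppp2r1a had -0.11 and did not pass.

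The member of this list that fell was Phf8, a histone demethylase whose target mark is bound by the HEAT subunits of condensin II. Its brighter probe set had -0.31 (limma adjusted p = 0.0314), a call lost in all single-array omissions except that of no-putrescine replicate 1. Over the 11 fits the adjusted p ran from 0.00882 to 0.093. Its further probe set had -0.03 and did not pass.

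Of 8 measured genes for other proteins of mitotic chromosomes, 7 rose and 0 fell, with a median of 0.67. By the same rule 15.8% of all genes and 27.0% of the bright ones were higher. Sgo2 was dimmer than Ncaph2 and so was not among the bright ones. Top2a, the topoisomerase that untangles sister DNAs beside condensin, rose by 0.92 (SE 0.10; limma adjusted p = 0.000281), from 10.17 ± 0.07 to 11.10 ± 0.14 (SD, n = 3). Mki67, which coats the chromosome surface, rose by 0.68, Sgo2, a protector of centromeric cohesion, by 0.99, and Rcc1, a chromatin-bound exchange factor of Ran, by 0.71. The gene that did not pass was Cenpa, the centromeric histone, at 0.18.

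Cohesin and the complex of Smc5 and Smc6 are also built on SMC ATPases. In the cohesin list 7 of 15 genes rose and 0 fell, with a median of 0.33. The shares were 15.8% higher and 14.2% lower over all genes and 27.0% and 21.8% over the bright ones. Mau2 and Esco1, which did not pass, were dimmer than Ncaph2. Of the ring genes, Smc1a rose by 0.47 (limma adjusted p = 0.00308), while Smc3 (-0.28) and Rad21 (0.05) did not pass. The smallest p belonged to genes that act on the ring: the acetyltransferase gene Esco2 (1.31), the separase inhibitor gene Pttg1 (0.94), the sororin gene Cdca5 (0.81) and the separase gene Espl1 (0.57). Smc6, an ATPase of the repair complex named after it and Smc5, had -0.32 (limma adjusted p = 0.0489). Its call was lost in 7 of 11 alternatives, among them all single-array omissions but that of with-putrescine replicate 3 (adjusted p 0.00798 to 0.158). Smc5 had -0.03 and Nsmce4a, a subunit of the same complex, rose by 0.65.

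**Figure D5:**
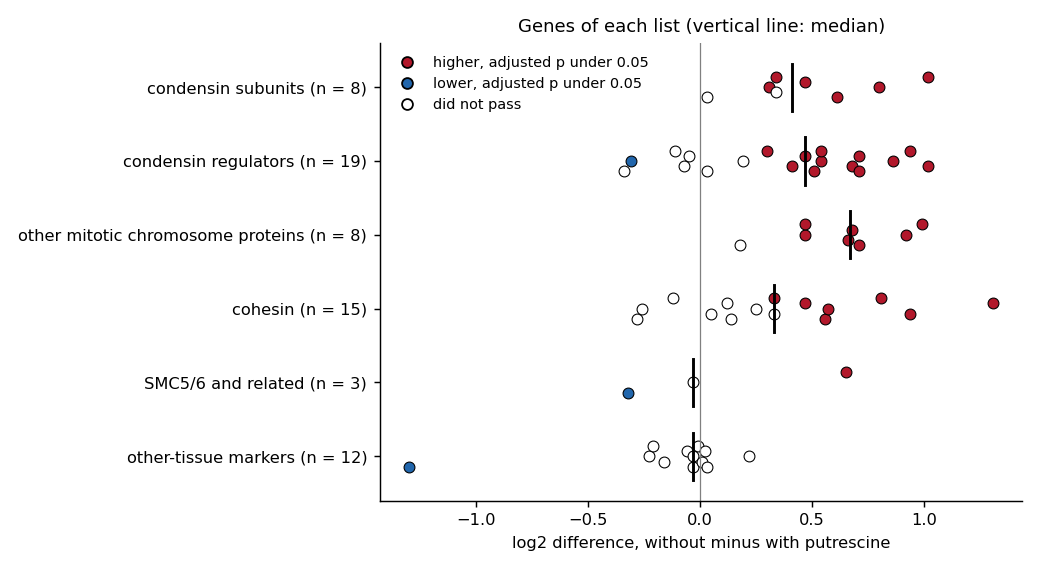
Log2 difference without minus with putrescine (horizontal axis) of each gene of the condensin subunits, 4 related lists and the other-tissue markers, each gene by its brightest probe set. Vertical lines are medians, at 0.41 for the condensin subunits, 0.47 for their regulators and 0.67 for other mitotic chromosome proteins.

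The per-array profile nearest to the mean of the condensin genes was looked for among 14846 other genes, by the root mean square distance over the 6 arrays on the log2 scale. The nearest were Me2, the mitochondrial malic enzyme (0.016), Psmc3, an ATPase subunit of the proteasome (0.022), Nckap1 (0.025), Ube2e3 (0.026) and Ttc5 (0.026). The median distance over all of those genes was 0.374. Among the condensin genes, Ncaph was nearest to their mean at 0.030 and Ncapg farthest at 0.381, and 7732 other genes were nearer than Ncapg. Ncaph2 was at 0.335. The mean includes the condensin genes and not the others, so their distances are not on equal terms.

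As a check of the cell type, 5 of 6 genes listed as high in this line were measured. Vim, which encodes the intermediate filament of mesenchymal cells, was at 12.06 without and 12.09 with putrescine. Actb was at 12.62 without and 12.45 with putrescine, and Lgals1 at 12.44 and 11.55. Lmna was at 10.25 and 9.09, and Tpm1 at 8.96 and 8.5. Of the 5, Lgals1 (0.89), Tpm1 (0.46) and Lmna (1.16) rose and Vim and Actb did not pass. Over all genes 15.8% were higher and 14.2% lower, and 27.0% and 21.8% of those at least as bright as Ncaph2. Of the 12 measured markers of other tissues 11 did not pass and 1 fell, the cardiac gene Tnnt2 (4.91 without and 6.21 with putrescine). Summed over the 12, the log2 levels of the markers were 43.1 to 43.7 without and 44.7 to 45.6 with putrescine. Tnnt2 had the largest difference of them, -1.3, against a median of -0.03 over the 12. The part of the markers in the condensin results was not tested. Arrays correlated at 0.9957 to 0.9962 within groups and 0.9856 to 0.9878 between them (Pearson r across probe sets).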

How the data were processed

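Each of the 6 arrays measured 1 culture. The authors deposited a log2 value per probe set, made with Transcriptome Analysis Console per the submitters' processing notes. Its version and settings, the log base and the build of the array's design are not given in those sources. Base 2 was taken from the range of the values (1.55 to 13.66, 1 missing), and no coordinates are given. The labels give 300 ng of total RNA for every sample, so a change in total RNA per cell would not show in these values. Array medians were 4.92 to 4.98, and scaling between arrays was not tested. Of the probe sets 16481 had 1 symbol in the platform annotation, 793 several and 12426 none. Every named symbol came from that annotation, and 16394 matched the RefSeq gene table of CriGri-PICRH-1.0 by Entrez identifier.

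The 2 groups were compared in limma across all probe sets, with no other term in the design (limma 3.58.1, R 4.3.3, eBayes defaults, two-sided). The fit was tested on simulated data with far fewer changed probe sets than passed here, as a check of the code only. Genes with several probe sets were counted by the brightest. Precision is limited by having 3 arrays in each group. Genes were named by rule: all condensin genes; in each related list the 4 smallest p, members against the list's direction and a fixed core; and the 5 nearest profiles. Ppp2r1a, Cenpa, Akap8l, Mau2, Esco1, the cohesin ring genes and the neighbours in the closing section were added after their values were seen. So was the share among bright genes. The condensin genes and the lists were chosen with earlier results of these data known. Alternatives were quantile normalization, median centring, a replicate block, a filter on dim probe sets, a trended robust prior, averaging of a gene's probe sets and leaving out each array. Scanner files were not used here, so the background correction could not be varied.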

Additional observations from a re-analysis of the deposited data

How the results depend on the processing

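The count of condensin genes that passed was 6, and 4 to 7 over the alternatives, with 0 lower in each. It was 7 over probe sets above the other-tissue marker level and 7 with a trended robust prior, where Smc2 passed. Over the array, 3915 probe sets were higher and 3325 lower, and with 1 array left out 3116 to 3376 and 2685 to 2892. Ncapg, Ncapg2, Smc4 and Ncaph passed in every alternative run. Ncaph2 had -0.01 without no-putrescine replicate 1 and up to 0.06 otherwise, and Smc5 ranged from -0.09 to 0.00; neither passed in any. Ncapd2 minus Ncapd3 ranged from -0.07 to 0.02 with 1 array left out and turned its sign without no-putrescine replicate 3 and without with-putrescine replicate 3 (0.00). Ncaph minus Ncaph2 ranged from 0.38 to 0.51, Ncapg minus Ncapg2 from 0.10 to 0.29 and Smc2 minus Smc4 from -0.32 to -0.22. The cause of these shifts was not tested. Same-numbered flasks did not deviate together (r = 0.045, -0.101 and -0.02 for numbers 1, 2 and 3), so the numbers were not taken as pairs. With the replicate number as a block, 5 condensin genes passed, Ncapd2 did not (adjusted p = 0.0642, in a range of 0.00566 to 0.104), and Smc2 had adjusted p = 0.0898 (0.0145 to 0.144). The block also ended the calls of Plk1 (adjusted p = 0.0768, in a range of 0.00336 to 0.113), Phf8 (0.0716, 0.00882 to 0.093) and Smc6 (0.101, 0.00798 to 0.158). All condensin probe sets were above the other-tissue marker level of 3.62. That level is the median of 12 markers, 6 of which were also above it, and background in the condensin values was not tested.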

Other observations

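The neighbours of the condensin genes were taken from the RefSeq annotation of CriGri-PICRH-1.0. Of 16 protein-coding neighbours 13 were measured, each counted by its brightest probe set, of which 2 rose, 1 fell and 10 did not pass. Over all genes 15.8% were higher and 14.2% lower. Ift80, an intraflagellar transport gene beside Smc4, rose by 0.30 (SE 0.09; limma adjusted p = 0.0474), and Trim59 on the other side had 0.20 and did not pass. Mrpl51, a mitochondrial ribosomal protein gene beside Ncapd2, rose by 0.76 (SE 0.10; limma adjusted p = 0.000889), more than Ncapd2 itself, while Gapdh on the other side had 0.04 at a level of 12.95 ± 0.02 without and 12.91 ± 0.02 with putrescine (SD, n = 3). Beside Ncaph2, Lmf2 had 0.35 and did not pass (limma adjusted p = 0.0907), and LOC103162003 fell by 0.48 on the log2 scale (limma adjusted p = 0.029). Lcorl, beside Ncapg, had -0.05 in its brightest probe set and 0.07 in another, neither of which passed, while its dimmest probe set fell by 1.23 (SE 0.19; limma adjusted p = 0.00182), from 5.97 ± 0.34 to 4.74 ± 0.28 (SD, n = 3). These neighbours were chosen after the values of the condensin genes were seen and were not followed over the alternatives.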
